A study of Homo sapiens with 12 samples.

Results

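The response of HCC70 cells to atorvastatin (ATV) alone was examined in a single pair of RNA-seq libraries, ATV at 1.25 μM against vehicle, both collected after 24 h. HCC70 is an established triple-negative breast cancer (TNBC) cell line of basal type, a tumour class without oestrogen receptor, progesterone receptor or HER2 amplification. The pair is 2 of 12 libraries. The others used here were HCC70 with the RORγ antagonist XY018 at 1.25 or 2.5 μM, HCC70 with XY018 and ATV at 1.25 μM each, and the same 5 treatments in MDA-MB468, another TNBC line. All cells were of 1 line each, grown in serum-containing medium, which supplies cholesterol, and each condition had 1 library, so the differences below could not be tested against the spread between replicates and carry no p-value. The comparison took every gene that reached 1 FPKM in either library (FPKM: fragments scaled by transcript length and by the mapped fragments of the library, so that levels of genes of unequal length can be compared). This left 11742 of 16491 genes. The change of a gene is the log2 ratio of ATV to vehicle FPKM with 0.1 added to both, and a gene is called higher or lower past 1.5-fold.

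ATV is a statin, a drug that blocks the synthesis of mevalonate, from which cells build cholesterol, the farnesyl and geranylgeranyl lipids that anchor small GTPases to membranes, dolichol and ubiquinone. When sterols in the endoplasmic reticulum fall, the transcription factors SREBP1 and SREBP2 are released from their anchors, the INSIG proteins, and raise transcription of the enzymes of the pathway. Loss of geranylgeranyl lipids changes the activity of small GTPases and the genes under their control, among them RHOB and KLF2. The comparison asks how far a clinically used statin evokes this feedback in TNBC cells.

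With ATV 261 genes (2.22% of those compared) were higher and 155 (1.32%) were lower. The median log2 ratio over all genes was −0.01 with an SD of 0.29, and 77.5% of genes lay within 1.2-fold. Among genes that reached 5 FPKM in either library, 90 of 8670 genes were higher and 24 lower. The files hold no counts. Low FPKM values fall on steps worth 1 fragment each, and their spacing gave an estimated depth of 9700000 fragments for vehicle and 10000000 for ATV, and each gene was given a 95% Clopper-Pearson counting interval of its ratio, which covers counting error only and not the spread between cultures. This interval excluded a ratio of 1 for 183 of the 254 higher genes and 101 of the 150 lower genes with an annotated length. Over all genes compared with a length it did so for 3567 of 11659. The called genes were chosen by the same ratio, so their intervals are no independent support for the calls. Just inside the threshold lay MC1R at 8.14 FPKM in vehicle and 12.3 with ATV (log2 ratio 0.59), and just outside it PRR12 at 10.4 and 15.6 (0.58). On the other side VGLL1, at 8.77 and 5.81 (−0.59), was just inside and TMPRSS11E, at 4.54 and 3 (−0.58), just outside.

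The 21 enzymes that convert acetyl-CoA to cholesterol were all expressed, and 3 of them were called higher with ATV. MVD, LSS and HSD17B7 were called, none was lower, and 20 of 21 lay above vehicle. The median log2 ratio of the list was 0.26, beside −0.01 over all genes. The counting interval lay above 0 for 17 enzymes and below 0 for none, against 15.3% and 15.04% of all genes compared. The all-gene shares, here and below, include weakly expressed genes, whose intervals are wide. Among 8670 genes at 5 FPKM or above, which every enzyme reached, the interval excluded 0 in either direction for 3171. MVD, mevalonate diphosphate decarboxylase, stood at 56.1 FPKM in vehicle, 95.8 with ATV, 18.1 and 17.3 with XY018 at 1.25 and 2.5 μM, and 20.7 with both compounds. LSS, which closes squalene epoxide into lanosterol, stood at 27.0, 43.95, 9.18, 7.95 and 8.31 FPKM in the same order. For both genes the ATV library was the highest of the 5 and the 3 libraries with XY018 lay together below vehicle. The log2 ratio to vehicle was 0.77 for MVD (counting interval 0.66 to 0.89) and 0.70 for LSS (0.60 to 0.80). HSD17B7, a 3-keto-sterol reductase, went from 14.3 to 21.5 FPKM, a log2 ratio of 0.59 (0.34 to 0.85) that sits at the threshold. It has a near-identical pseudogene copy, so its reads may be split.

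In the early steps, HMGCS1, which makes HMG-CoA, had a log2 ratio of 0.34 (0.21 to 0.48) and ACAT2, the thiolase that supplies acetoacetyl-CoA, had 0.10 (−0.05 to 0.25). Of the enzymes that carry mevalonate to farnesyl diphosphate, MVK had a log2 ratio of 0.53, IDI1 0.31, FDPS 0.12 and PMVK 0.11, and the interval of PMVK held 0. FDPS has pseudogene copies that may take part of its reads. GGPS1, at the branch to geranylgeranyl diphosphate, was at 17.8 and 19.1 FPKM (0.11, −0.07 to 0.29).

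Among the enzymes from squalene onward, SQLE, the squalene epoxidase, was at 80.1 FPKM in vehicle and 105 with ATV, a log2 ratio of 0.39 (0.31 to 0.46). TM7SF2, a sterol reductase, had 0.53, DHCR7, which completes cholesterol, 0.45, MSMO1 0.34 and CYP51A1 0.26, and every one of these intervals lay above 0. FDFT1, NSDHL and SC5D lay between 0.14 and 0.16. EBP, a sterol isomerase, was the exception, at 54.7 and 53.4 FPKM (−0.04, −0.20 to 0.13). The enzymes ranged from −0.04 to 0.77.

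**Figure D1:**
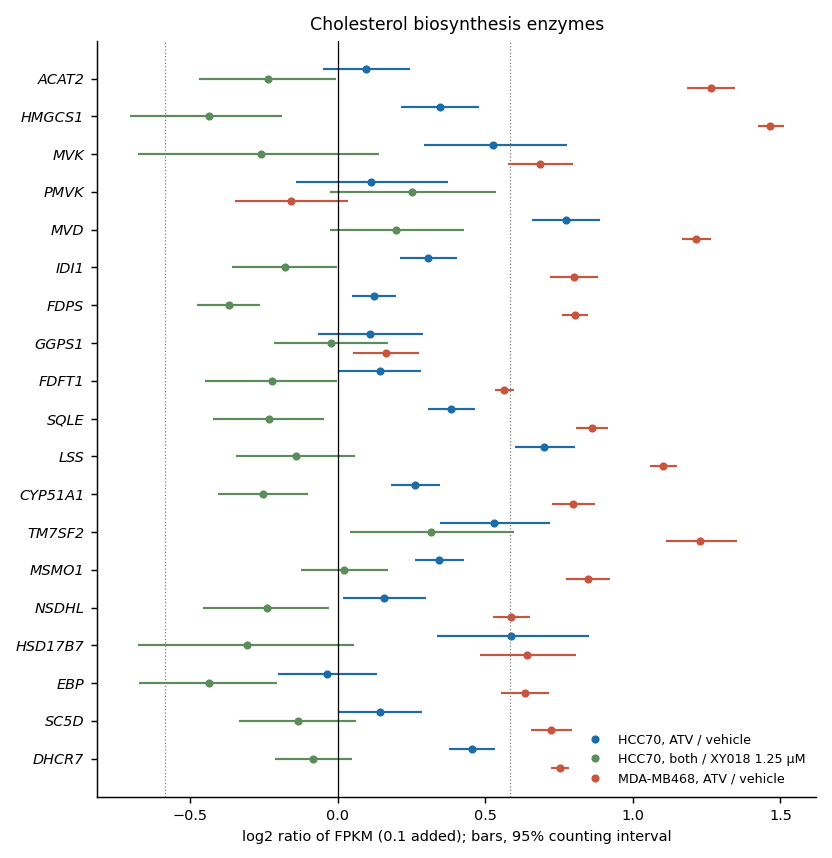
Log2 ratio of FPKM for 19 of the 21 cholesterol biosynthesis enzymes (rows) in HCC70 with ATV against vehicle (blue), HCC70 with both compounds against XY018 at 1.25 μM (green) and MDA-MB468 with ATV against vehicle (red). Bars are 95% counting intervals, dotted lines mark 1.5-fold, and the blue points lie between −0.04 and 0.77, mostly between the green and the red ones.

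The 250 bases upstream of the annotated start are shown for the 3 called enzymes and for FADS2, SREBF2 and RHOB, whose values follow, since SREBP-bound promoters commonly pair a sterol regulatory element with a CCAAT box bound by NF-Y. The sequences are from RefSeq, build GRCh38.p14, matched by symbol, while the notes on the expression values name GRCh37. Capitals mark CCAAT (or its reverse complement ATTGG) and the 9-letter patterns TCACNCCAC, a form of the sterol regulatory element, and TCACNCNAC, which includes it, searched on both strands.
MVD, chr16:88663092-88663341, minus strand: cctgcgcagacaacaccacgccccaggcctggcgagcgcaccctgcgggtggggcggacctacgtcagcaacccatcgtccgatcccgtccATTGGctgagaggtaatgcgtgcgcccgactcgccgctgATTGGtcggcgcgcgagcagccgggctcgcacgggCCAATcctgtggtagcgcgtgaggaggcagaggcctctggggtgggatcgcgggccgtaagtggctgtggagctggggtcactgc
LSS, chr21:46228775-46229024, minus strand: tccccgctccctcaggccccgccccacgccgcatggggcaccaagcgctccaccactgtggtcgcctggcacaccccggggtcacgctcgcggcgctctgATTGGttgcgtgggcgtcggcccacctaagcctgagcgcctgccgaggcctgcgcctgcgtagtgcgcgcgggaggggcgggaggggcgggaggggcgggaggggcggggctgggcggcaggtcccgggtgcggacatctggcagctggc
HSD17B7, chr1:162790452-162790701, plus strand: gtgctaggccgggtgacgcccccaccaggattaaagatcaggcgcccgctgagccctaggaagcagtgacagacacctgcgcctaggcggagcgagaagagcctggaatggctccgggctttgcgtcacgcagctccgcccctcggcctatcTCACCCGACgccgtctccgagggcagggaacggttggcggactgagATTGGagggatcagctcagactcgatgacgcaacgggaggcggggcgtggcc
FADS2, chr11:61815953-61816202, plus strand: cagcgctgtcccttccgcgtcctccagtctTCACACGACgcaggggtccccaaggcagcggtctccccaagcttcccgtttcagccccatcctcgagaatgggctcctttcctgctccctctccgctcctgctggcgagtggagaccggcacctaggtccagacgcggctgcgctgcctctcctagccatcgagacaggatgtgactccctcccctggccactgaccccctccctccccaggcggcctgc
SREBF2, chr22:41832855-41833104, plus strand: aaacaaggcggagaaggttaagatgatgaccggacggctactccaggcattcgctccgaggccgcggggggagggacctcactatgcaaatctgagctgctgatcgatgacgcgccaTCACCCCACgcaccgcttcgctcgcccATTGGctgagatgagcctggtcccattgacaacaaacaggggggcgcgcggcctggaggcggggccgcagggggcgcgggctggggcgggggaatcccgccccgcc
RHOB, chr2:20446824-20447073, plus strand: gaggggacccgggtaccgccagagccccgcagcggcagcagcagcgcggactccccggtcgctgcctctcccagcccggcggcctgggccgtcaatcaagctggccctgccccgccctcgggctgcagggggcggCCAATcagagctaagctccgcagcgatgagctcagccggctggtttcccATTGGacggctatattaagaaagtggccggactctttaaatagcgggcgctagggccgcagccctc
MVD held 3 CCAAT boxes, RHOB 2, and LSS, HSD17B7 and SREBF2 1 each. SREBF2 held TCACCCCAC, which fits both of the longer patterns, and HSD17B7 and FADS2 held only the looser one. FADS2 has 2 annotated windows, of which the first is shown. Over 35116 promoter windows, CCAAT was found in 32%, TCACNCNAC in 2.02% and TCACNCCAC in 0.883%. Windows were given for 71.6% of the higher and 72.9% of the lower genes and for 76.2% of the enzymes. These shares are below 80%, so no count over the lists is given.

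The regulators of SREBP varied less than the enzymes. Of 12 SREBP factors and sterol sensors none passed 1.5-fold, 8 lay above 0, and the median log2 ratio was 0.03. INSIG1, the sterol-dependent anchor and itself an SREBP target, was the highest, at 32.3 FPKM in vehicle and 44.8 with ATV (0.47, 0.35 to 0.60), against 11.4, 7.79 and 9.75 in the libraries with XY018. SREBF2, which encodes SREBP2, went from 137 to 162 FPKM (0.24, 0.19 to 0.29), and SREBF1 from 37.4 to 41.9 (0.16, 0.07 to 0.26). SCAP, the escort protein of both, had 0.20 (0.06 to 0.34). INSIG2, the proteases MBTPS1 and MBTPS2, and the ubiquitin-pathway genes RNF139, RNF145, UBE2G2 and TRIM8 lay between −0.05 and 0.09.

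The 19 genes of lipoprotein uptake and sterol transport had a median log2 ratio of 0.09, and 13 lay above 0. MYLIP, a ubiquitin ligase and LXR target, was at 8.36 and 5.81 FPKM (−0.52, −0.81 to −0.24). The cholesterol exporters ABCA1 and ABCG1 were weakly expressed in both libraries, at 2.22 and 1.65 FPKM and at 1.34 and 1.26 FPKM, against at least 22.6 FPKM in every library with XY018. Of 9 LXR receptors and targets compared, none was called.

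FADS2, the Δ6 fatty acid desaturase, stood at 54.1 FPKM in vehicle, 93.0 with ATV, 23.4 and 18.7 with the doses of XY018, and 25.3 with both. The ATV library was the highest of the 5, at a log2 ratio of 0.78 (0.69 to 0.87). Of 24 genes of fatty acid synthesis and desaturation it alone was called, while the median was 0.15 and 18 lay above 0. Of 20 genes that use isoprenoids for prenylation, dolichol or ubiquinone none was called. The widest change was FNTB, the farnesyltransferase β subunit, at 5.22 and 7.04 FPKM (0.42, 0.11 to 0.76). FNTB was at 7.92 and 7.17 FPKM with XY018 and 5.11 with both. Its log2 ratio was −0.62 (−0.96 to −0.31) when ATV was added to XY018 and −0.06 in MDA-MB468.

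**Figure D2:**
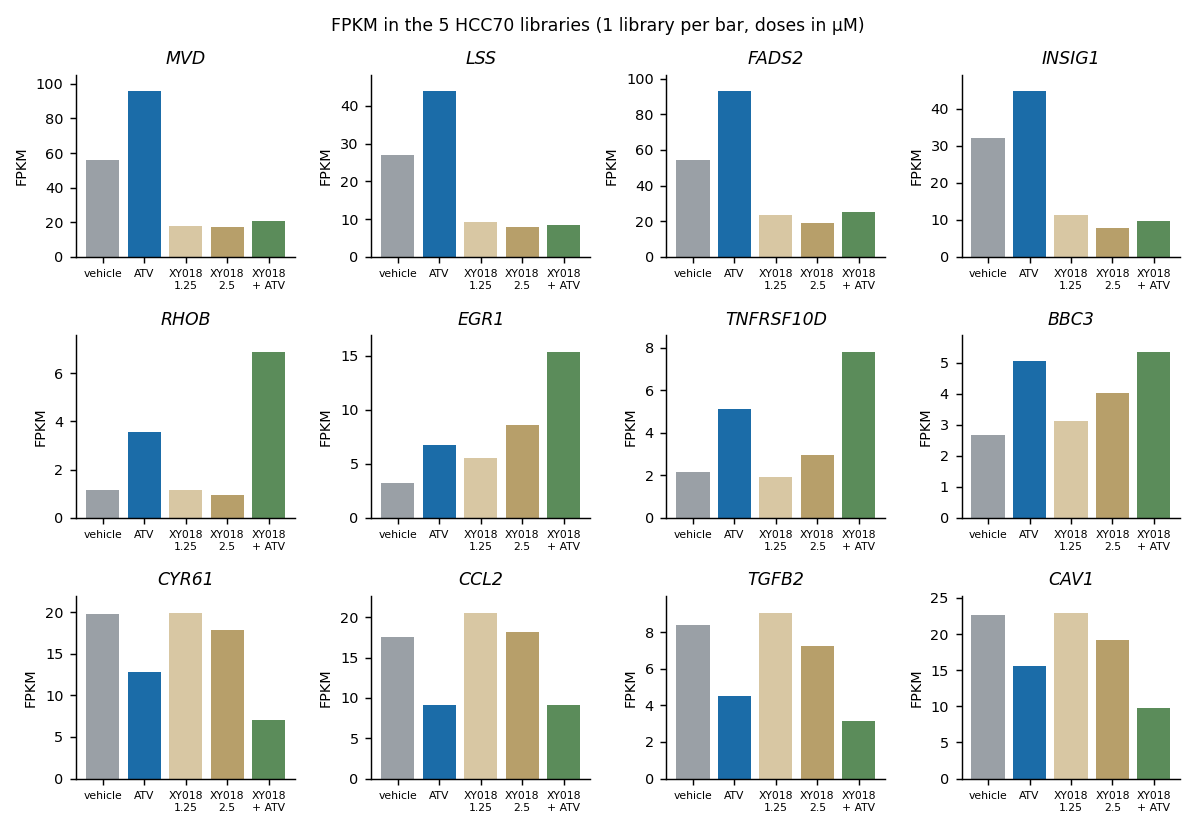
FPKM (vertical axes, from 0) of 12 genes in the 5 HCC70 libraries, 1 bar per library, with doses in μM. The top row is highest with ATV alone and low in all 3 libraries with XY018, the middle row is highest with both compounds, and the bottom row is low in both libraries with ATV.

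Of 26 prenylated small GTPases and their regulators, RHOB and RND1 were called higher, as were 2.22% of all genes compared. In this list 9 lay above 0, with a median of −0.09. RHOB, a short-lived small GTPase that is farnesylated or geranylgeranylated, stood at 1.15 FPKM in vehicle, 3.58 with ATV, 1.13 and 0.95 with the lower and the higher dose of XY018, and 6.89 with both. The 2 libraries with ATV lay above the 3 without it. The log2 ratio with ATV was 1.56 (0.99 to 2.33), from about 26.2 and 84.0 fragments. RND1, a GTPase that loosens adhesion, was at 1.34 and 2.15 FPKM (0.64), with an interval from −0.14 to 1.53. KLF2, a Krüppel-like factor known to respond to statins in endothelium, was under 1 FPKM in both libraries (0.37 in vehicle, 0.83 with ATV) and was not compared. It was at 0.36 and 0.55 FPKM with XY018 and at 2.5 with both compounds. None of the 9 Krüppel-like factors compared was called, and KLF7 had the largest ratio (0.28).

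Among targets of YAP and TAZ, co-activators that respond to the state of the cytoskeleton, CYR61 (CCN1) was the only one of 19 called. This secreted matrix protein stood at 19.8 FPKM in vehicle, 12.8 with ATV, 19.9 and 17.8 with XY018 at 1.25 and 2.5 μM, and 6.99 with both. Both libraries with ATV lay below the others. The log2 ratio was −0.62 (−0.85 to −0.41). CTGF (CCN2), the neighbouring member of its family, was hardly expressed in HCC70, at 0.13 FPKM in vehicle and with ATV. None of 22 genes of the actin cytoskeleton and SRF was called, and TPM2, a tropomyosin, was at 126 and 102 FPKM (−0.30, −0.41 to −0.19).

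CCL2, the monocyte-attracting chemokine, stood at 17.6 FPKM in vehicle, 9.13 with ATV, 20.6 and 18.2 with XY018 and 9.16 with both (log2 ratio with ATV −0.94, −1.40 to −0.50). TGFB2, a TGFβ ligand, stood at 8.36, 4.5, 9.05, 7.25 and 3.14 FPKM in the same order (−0.88, −1.12 to −0.67). EFEMP1, the matrix protein fibulin-3, stood at 9.29, 6.12, 8.42, 5.84 and 2.77 FPKM (−0.59, −0.90 to −0.31). For CCL2 and TGFB2 the 2 libraries with ATV lay below the 3 without it. For EFEMP1 the higher dose of XY018 lay below ATV alone. CAV1, the caveolar coat protein and a basal marker, was not called and neither were the other basal markers compared, 14 in all. It was at 22.7 and 15.6 FPKM (−0.54, −0.73 to −0.35), and stood at 9.75 with both compounds. CCL20, another chemokine, was at 1.02 and 0.49 FPKM (−0.92), from about 8.05 and 3.99 fragments, and its interval held 0. CCL2 and CCL20 were the called members of 18 NF-κB targets and chemokines, whose median was −0.12. Over all genes compared 1.32% were called lower.

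Of 23 genes of the integrated stress response 19 lay above 0 (48.8% of all genes did), 13 had an interval above 0 (15.3% of all genes), and the median was 0.11. DDIT3, the factor CHOP, was the called one, at 8.38 FPKM in vehicle, 12.7 with ATV, 13.2 and 15.5 with XY018, and 18.8 with both (0.60, 0.16 to 1.05), so vehicle was the lowest of the 5. Of 20 genes of the unfolded protein response and its chaperones none was called, 8 lay above 0 and the median was −0.07 (0.01 after the adjustment for GC content described below). SYVN1, a ubiquitin ligase of the endoplasmic reticulum, was at 24.1 and 34.2 FPKM (0.50). HSPA1A, an inducible heat shock protein, was at 142 and 170 FPKM (0.26), and none of 13 cytosolic heat shock genes was called, with 6 above 0 and a median of −0.05.

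EGR1, an early growth response factor downstream of MAPK and SRF, stood at 3.24 FPKM in vehicle, 6.75 with ATV, 5.51 and 8.61 with XY018, and 15.4 with both (log2 ratio with ATV 1.04, 0.71 to 1.42). It was the called member of 21 early response genes, and its level with ATV alone lay between those of the 2 doses of XY018. BBC3, the BH3-only protein PUMA, went from 2.68 to 5.04 FPKM (0.89, 0.39 to 1.45) and stood at 5.34 with both compounds. It was the only one of 20 apoptosis regulators called, and the list had a median of −0.10 (−0.02 after the GC adjustment). TNFRSF10D, a decoy receptor for the death ligand TRAIL, stood at 2.16 FPKM in vehicle, 5.1 with ATV, 1.9 and 2.96 with XY018, and 7.79 with both (1.2, 0.84 to 1.65). Its 2 libraries with ATV were the highest.

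Single members were called in several other lists. MUC1, a mucin of luminal epithelium that HCC70 expresses strongly, was at 554 FPKM in vehicle, 840.1 with ATV, 505 and 487 with XY018, and 733 with both (0.60, 0.56 to 0.64). TFF1, a trefoil peptide of the same list, was at 1.54 and 0.85 FPKM (−0.79), with an interval that held 0. IRF7, an interferon regulator, was at 3.74 and 5.89 FPKM (0.64, 0.21 to 1.11), the called one of 23 interferon-stimulated genes. PDK4 and PDK1, kinases that switch off pyruvate dehydrogenase, moved oppositely, PDK4 from 1.24 to 2.07 FPKM (0.70) and PDK1 from 2.99 to 1.77 FPKM (−0.72). PDK4 was at 2.85 and 3.43 FPKM with XY018 and 4 with both, so vehicle was the lowest and ATV alone lay below every library with XY018. PDK1 was at 2.93 and 3.5 FPKM with XY018 and 2.28 with both. ADM, the hypoxia-responsive peptide adrenomedullin, was at 2.44 and 1.28 FPKM (−0.88). BNIP3, a mitophagy receptor also induced by hypoxia, was at 1.28 and 0.68 FPKM (−0.82), with an interval that held 0. ADM and BNIP3 were the called ones of 16 hypoxia genes outside glycolysis, where 1.32% of all genes compared were called lower. The median of that list was −0.02.

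Lists of the cell's basic machinery held small shifts and no calls other than PDK1. Of 23 respiratory chain subunits 22 lay below 0, with a median of −0.12 and 12 intervals below 0 (15.04% of all genes had one below 0). NDUFA1, of complex I, was at 66.3 and 47.5 FPKM (−0.48, −0.76 to −0.21). It was at 49.3 and 52.1 FPKM with XY018 and 51.0 with both, so the vehicle library stood apart. Its log2 ratio was 0.05 when ATV was added to XY018 and −0.06 in MDA-MB468. Of 25 cytosolic ribosomal proteins 18 intervals lay below 0 (median −0.12), with RPS18 at 465 and 389 FPKM (−0.26). Intervals are narrow for abundant transcripts, and RPS18 had about 2386 fragments in vehicle, against a median of 353.5 over all genes compared. When ATV was added to XY018 the ribosomal list had a median of 0.01, with 8 intervals above 0 and 7 below. In MDA-MB468 its median was 0.02. The medians were −0.11 for 22 DNA replication genes, −0.09 for 24 genes of mitosis (−0.04 after the GC adjustment) and −0.10 for 20 glycolysis genes, each with 3 members above 0. Within these lists GINS1, of the replicative helicase, had −0.25 and PTTG1, securin, −0.34. The G1 regulators had a median of 0.09, and E2F2, a cell-cycle transcription factor, was at 38.0 and 47.9 FPKM (0.33). TXN, thioredoxin, was the furthest from 0 of the NRF2 targets, at 218 and 174 FPKM (−0.33). S100A4 had −0.38 among acute phase and S100 genes, with an interval that held 0 (−0.87 to 0.09). Its vehicle library was the highest in HCC70, at 17.7 FPKM, against 9.74 to 13.6 in the others. MMP7, a matrix protease, had −0.48 among adhesion and mesenchymal genes. Neither this list nor that of S100A4 held a call.

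**Figure D3:**
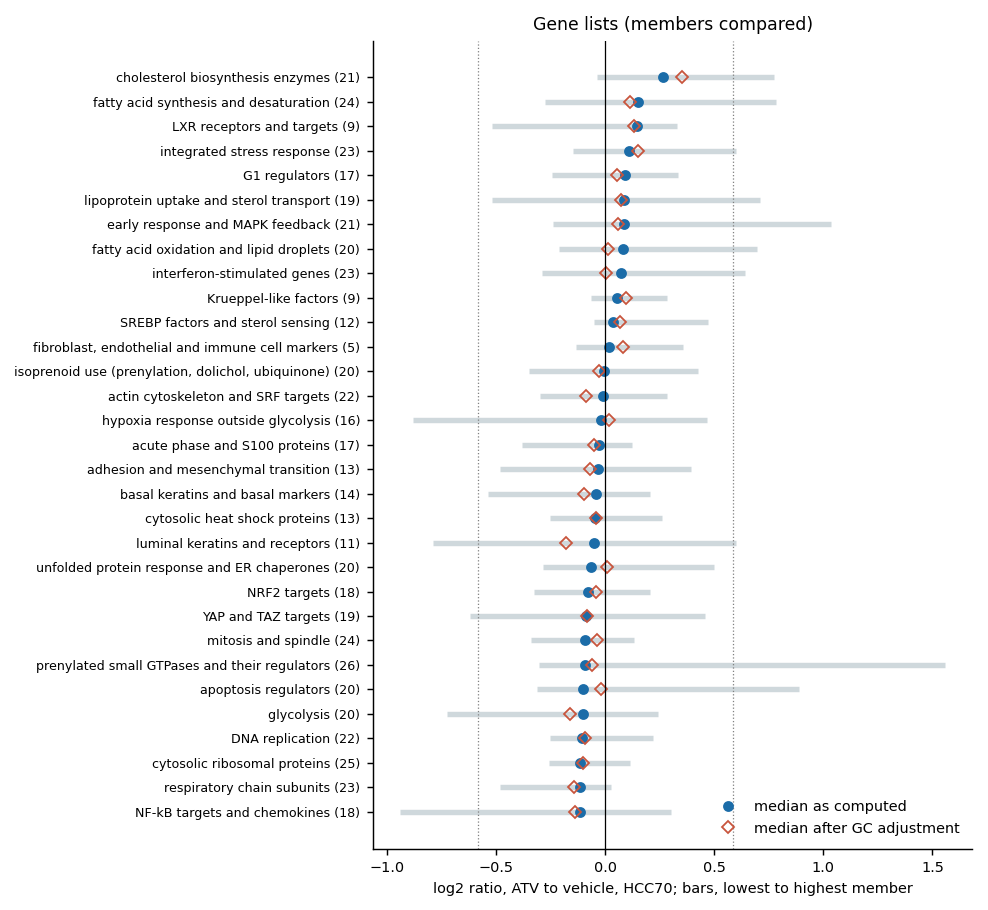
Median log2 ratio of ATV to vehicle in HCC70 for 31 gene lists (rows, number of members compared in brackets), as computed (circles) and after the adjustment for transcript GC content (diamonds). Bars run from the lowest to the highest member, dotted lines mark 1.5-fold, and the cholesterol biosynthesis enzymes have the highest median by either measure.

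The genes that stood highest by log2 ratio at 5 FPKM or above were mostly outside these lists. C6orf1 (SMIM29), a small membrane protein, stood at 3.92 FPKM in vehicle, 12.1 with ATV, 6.18 and 5.85 with XY018, and 14.5 with both (1.60, 1.02 to 2.26). C9orf16 (BBLN), a small coiled-coil protein, stood at 54.6, 115, 49.1, 52.5 and 119 FPKM in the same order (1.07, 0.89 to 1.25). HCFC1R1, a regulator of host cell factor, went from 31.0 to 63.9 FPKM (1.04) and stood at 49.96 with both, against 27.4 and 28.3 with XY018. In these 3 genes the 2 libraries with ATV lay above the 3 without it. CNIH2, a cornichon cargo receptor, was at 7.22 and 16.4 FPKM (1.17) and stood at 9.96 with both, near the 9.11 of XY018 alone. EIF4EBP3, a repressor of translation initiation, U2AF1L4, a splicing factor, ARHGAP33, a GTPase-activating protein, NOXA1, an activator of NADPH oxidase, and LYNX1, a modulator of nicotinic receptors, had log2 ratios from 0.93 to 1.11, each with an interval above 0.

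The remaining 4 of the 15 highest, RBM14-RBM4, NPIPA8, FAM157A and NPIPA2, are a read-through transcript and members of multi-copy families, whose reads can be split between copies. The same holds for the lowest values. U2AF1L5 was at 23.0 FPKM in vehicle and listed at 0 with ATV, while its near-identical copy U2AF1 was at 28.2 and 50.2, and their sum was 51.2 and 50.2 FPKM. U2AF1L5 is a gene model of later annotations than GRCh37, so the annotation behind the values is not certain. SMN2 was at 5.96 FPKM and listed at 0, and the sum of SMN1 and SMN2 was 19.5 and 19.0 FPKM. The read-through C7orf55-LUC7L2, the pseudogene TMEM183B and CMC4, which overlaps its neighbour, are uncertain in the same way.

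Of the other lower genes, TIPIN, which stabilises replication forks, stood at 11.1 FPKM in vehicle, 6.12 with ATV, 8.23 at both doses of XY018 and 4.57 with both (−0.85, −1.22 to −0.51). SLIRP, which binds mitochondrial mRNA, was at 51.1 and 32.0 FPKM (−0.67, −1.03 to −0.33). TMEM126A, an assembly factor of complex I, and TIMM8A, a chaperone of mitochondrial import, had −0.81 and −0.63. IFI27L2, DPCD, RIDA and SLC31A2, a copper transporter, had log2 ratios from −0.73 to −0.66. Every interval of these 8 genes lay below 0, but the genes were chosen by the same ratio, so this is no independent support. When ATV was added to XY018, DPCD had 0.17 and IFI27L2 0.22, and the others lay below 0. TIMM8A stood lower with XY018 alone, at 3.32 and 3 FPKM, than with ATV alone, at 3.57.

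The log2 ratios with ATV in HCC70 followed the base composition of the transcripts. Over 8625 genes at 5 FPKM or above, Spearman's correlation with the GC content of the annotated transcript was 0.52, across genes, which are not independent replicates. The median log2 ratio ran from −0.11 in the decile of genes lowest in GC to 0.21 in the highest decile. Transcripts of at least 60% GC made up 42.5% of the higher genes with a value, 5.33% of the lower genes and 15.6% of all compared. The same correlation was 0.50 for both compounds against XY018 in HCC70, over 8640 genes, and 0.10 for ATV in MDA-MB468, over 8646 genes. After each ratio was reduced by the median of genes of like GC content, 187 genes were higher and 144 lower. The median of the cholesterol enzymes was then 0.35, with LSS (0.62) and HSD17B7 (0.64) past 1.5-fold and MVD at 0.52. FADS2 was then at 0.67, RHOB at 1.47, CCL2 at −0.83, TGFB2 at −0.81, CYR61 at −0.62, MUC1 at 0.49 and IRF7 at 0.37. Whether ATV, the culture or the library preparation gave rise to the GC trend was not tested.

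**Figure D4:**
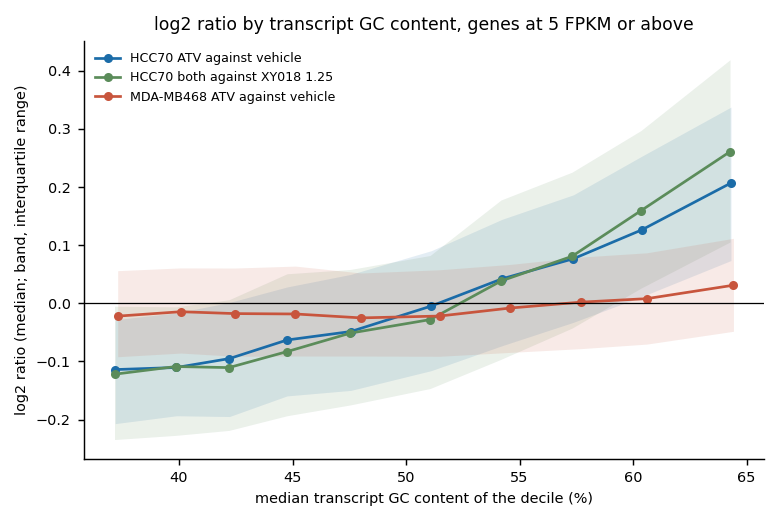
Median log2 ratio (line) and interquartile range (band) by decile of transcript GC content (horizontal axis, %), for genes at 5 FPKM or above in 3 comparisons. Both HCC70 comparisons climb from about −0.11 and −0.12 to 0.21 and 0.26, and the MDA-MB468 line runs from −0.02 to 0.03.

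ATV added to XY018 gave another view of the same drug in HCC70 with libraries that the first comparison did not use. Both compounds against XY018 at 1.25 μM gave 441 higher genes (3.75% of 11775) and 231 lower (1.96%). Over 8459 genes at 5 FPKM or above in both comparisons, the log2 ratios had a Pearson correlation of 0.60 (Spearman 0.58), and 0.46 (0.43) after the GC adjustment. Of the genes higher with ATV alone that could be compared, 82 of 224 (36.6%) were also higher here, which is 21.4% of the 383 on the other side. Of the lower genes 32 of 130 were shared, 24.6% of one list and 16.2% of the other. A further 16 higher and 8 lower genes were called the opposite way here.

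The sterol genes differed between these settings. No cholesterol enzyme passed 1.5-fold when ATV was added to XY018, 4 of 21 lay above 0, and their median log2 ratio was −0.18, against 0.26 with ATV alone. MVD had 0.20 (−0.03 to 0.43), LSS −0.14 (−0.35 to 0.06), HMGCS1 −0.44 (−0.71 to −0.19) and FADS2 0.11 (−0.04 to 0.27). For each of these 4 genes the counting interval lay below that of ATV alone and did not overlap it. On top of XY018 the log2 ratio was 2.51 for RHOB (1.99 to 3.29), −1.50 for CYR61 (−1.79 to −1.24), −1.50 for TGFB2 (−1.78 to −1.28), −1.57 for EFEMP1 (−2.01 to −1.21) and −1.23 for CAV1 (−1.46 to −1.01). For CYR61, TGFB2, EFEMP1 and CAV1 the interval lay further from 0 than with ATV alone, without overlap. For CCL2 (−1.16, −1.62 to −0.73), EGR1 (1.46, 1.22 to 1.75) and RHOB the intervals of the 2 settings overlapped. C9orf16 had 1.28 and MUC1 0.54. ADM had 0.08 on top of XY018 (−0.64 to 0.81) and −0.88 with ATV alone (−1.82 to −0.08). IFI27L2 had 0.22 (−0.36 to 0.81) and −0.73 (−1.44 to −0.07). Both genes differed in sign between the settings, but their intervals overlapped, and those on top of XY018 held 0.

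In MDA-MB468, where the depth was about 19920000 fragments with ATV, the same dose and time gave 160 higher genes (1.37% of 11711) and 94 lower (0.803%). Of the 21 enzymes 17 were higher, with a median log2 ratio of 0.80. HMGCS1 had 1.47 (1.43 to 1.51) and MVD 1.21 (1.17 to 1.26), and both of these intervals lay above the HCC70 one. For HSD17B7, with 0.64 (0.48 to 0.81), the intervals of the lines overlapped. FADS2 had 0.44 (0.33 to 0.54) in MDA-MB468, below the HCC70 interval. RHOB, at 7.39 and 8.59 FPKM there, had 0.21 (0.00 to 0.43), also below HCC70.

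Across 7548 genes at 5 FPKM or above in both lines with a GC value, the log2 ratios of HCC70 and MDA-MB468 had a Pearson correlation of 0.23 (Spearman 0.19), and 0.20 (0.15) after the GC adjustment. At that level, over 7581 genes, 66 were higher and 15 lower in HCC70, and 42 higher and 7 lower in MDA-MB468. Called higher in both lines were 5, among them MVD, LSS, HSD17B7 and FGFBP1, while EFEMP1 was lower in both and 0 were opposite. With lists this short, the lack of opposite calls says little about the likeness of the lines. FGFBP1, a carrier of fibroblast growth factors, was at 4.82 and 7.51 FPKM in HCC70 (0.63, 0.17 to 1.12) and at 1.65, 0.61 and 0.84 FPKM with XY018 at the lower and the higher dose and with both. CYR61 and TGFB2, at −0.52 and −0.53 in MDA-MB468, were just short of the threshold there, while C9orf16 (0.07), HCFC1R1 (0.10), EGR1 (0.00) and MUC1 (0.10) lay near 0. Without the 5 FPKM limit 15 of 182 higher genes (8.24%) and 7 of 99 lower genes (7.07%) of HCC70 were called the same way in MDA-MB468, 14.2% and 10.9% of its lists, and 7 and 5 were called the opposite way.

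**Figure D5:**
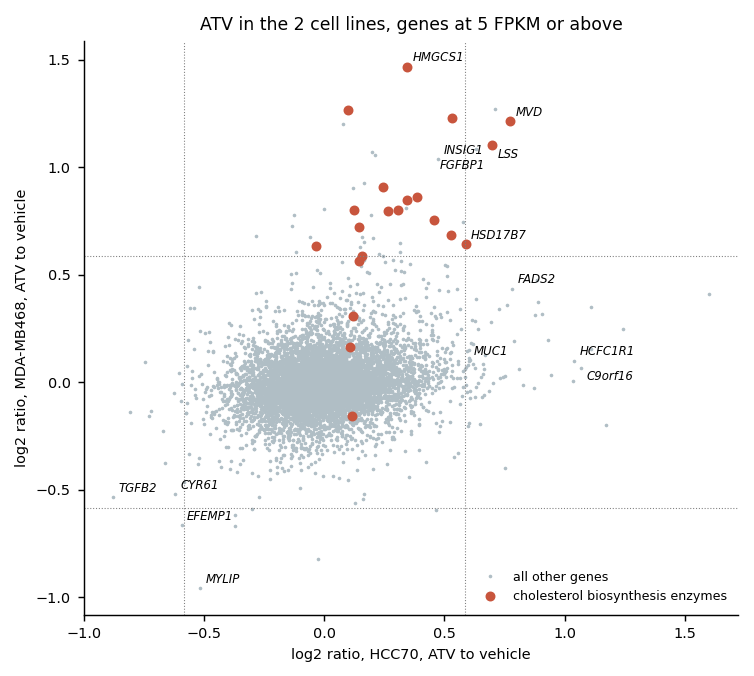
Log2 ratio of ATV to vehicle in HCC70 (horizontal) and MDA-MB468 (vertical) for 7580 of the 7581 genes at 5 FPKM or above in both comparisons (U2AF1L5 lies outside), with cholesterol enzymes in red and dotted lines at 1.5-fold. The enzymes extend upward more than to the right, and genes such as C9orf16 and HCFC1R1 extend to the right alone.

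With 1 library on each side, a call can come from either. Of the 261 higher genes, the ATV library was the highest of the 5 HCC70 libraries for 162 and vehicle the lowest for 146. Of the 155 lower genes, the ATV library was the lowest for 99 and vehicle the highest for 97. Both libraries with ATV lay above the 3 without it for 143 higher genes (54.8%), and below them for 56 lower genes (36.1%). Over all genes compared the same shares were 18.1% and 17.2%. Part of this condition, ATV beyond vehicle, is what chose the higher and lower genes, so their shares are raised by the choice itself. RHOB, TNFRSF10D, C6orf1, C9orf16, HCFC1R1 and MUC1 belonged to the first set and CYR61, CCL2, TGFB2, CAV1 and TIPIN lay in that way on the lower side. DDIT3, EGR1 and the sterol genes did not.

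Basal markers and general epithelial markers were expressed in both libraries. KRT5, KRT14, KRT17, EGFR and CDH3 were at 7.32 to 659.8 FPKM in vehicle and 8.45 to 568.4 with ATV. The epithelial keratins KRT8, at 312.7 and 282.9 FPKM, and KRT18, at 246.9 and 212.1, lay above KRT14 and EGFR in both libraries. ESR1 was at 0.56 and 0.64 and ERBB2 at 25.7 and 28.8 FPKM, and PGR was not among the genes listed. Fibroblast markers summed to 4.49 and 5.73 FPKM, mainly COL1A1, and endothelial markers to 1.37 and 1.17. Of the blood markers 3 were above 1 FPKM, CD14 at 170.0 and 171, CD68 at 76.6 and 83.2, and LYZ at 8.35 and 8.46, close to equal in both libraries. The HCC70 libraries held an estimated 9120000 to 10000000 fragments.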

How the data were processed

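RNA was sequenced from HCC70 and MDA-MB468 cells, 1 library per condition. The authors used BWA, Bowtie and, for quantification, Cufflinks on the GRCh37 (hg19) build, per the labels and methods, and the deposited values are taken as FPKM. The headers name no unit. The values, to 2 decimals, list RefSeq genes by Entrez ID. Each cell line has its own table, normalized separately, so ratios were taken only within a table. The 2 libraries of the GSK805 experiment were not used here.

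Log2 ratios were computed with a pseudocount of 0.1 FPKM for genes that reached 1 FPKM in either library, and called past 1.5-fold. The scale understates changes of low genes. No test was possible with 1 library per side. The gene sets (31 lists), thresholds and members were chosen with earlier results of these data known. Named were all cholesterol and SREBP genes, up to 6 called members of other lists or else the widest change, the 15 highest and 15 lowest at 5 FPKM, genes called in both lines at that level, and KLF2, RHOB, CYR61, CTGF, ABCA1, ABCG1 and some further single genes. Some of the genes this rule names are not reported here.

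Fragments were estimated from FPKM, the length of the GENCODE transcript and a depth fitted to the spacing of low values, and the 95% intervals carry no pseudocount. GC adjustment used 50 bins of transcript GC and was chosen after the data were seen. Scripts were tested on simulated data. Symbols damaged into dates were restored from the Entrez ID. Computation used scipy 1.17.1, pandas 2.3.3, numpy 2.4.6 and Python 3.11.15, and plots matplotlib 3.10.9.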

Additional observations from a re-analysis of the deposited data

How the results depend on the processing

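Each count below is higher then lower, in the order HCC70 with ATV, HCC70 with both against XY018, MDA-MB468 with ATV. A pseudocount of 1 gave 106 and 57, 209 and 97, and 76 and 31 genes. Without a filter on low values the counts were 957 and 766, 1113 and 808, and 630 and 559, and with a filter at 5 FPKM they were 90 and 24, 173 and 66, and 58 and 21. A threshold of 2-fold left 53 and 34, 75 and 66, and 40 and 15 genes, with 0 cholesterol enzymes in HCC70 and 5 in MDA-MB468. Rescaling each library to a sum of 1000000, which lowers both the effective filter and the effective pseudocount, gave 471 and 282 in HCC70 with ATV, 388 lower genes with both compounds, and 267 and 190 in MDA-MB468. Requiring the counting interval to exclude a ratio of 1 as well left 101 lower genes in HCC70 with ATV. Adjustment for transcript GC, chosen after the data were seen, put the median of the cholesterol enzymes in HCC70 at 0.35, against 0.26.

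The counts of higher and lower genes differed by less than 1.5 times from those reported with a pseudocount of 0.01, with ratios shifted to a median of 0 and with the GC adjustment. The shift of all genes was 0.01 on centring and 0.02 on rescaling. Of 50 named genes past 1.5-fold, 49 remained past it on rescaling, 42 of the 48 with a value after the GC adjustment, 43 with the interval required, 37 with a pseudocount of 1 and 14 at 2-fold. The median of the unfolded protein response and of the hypoxia list changed sign with the GC adjustment (0.01 and 0.02), that of the luminal list without a filter (0.02), with the 5 FPKM filter (0.03) and on rescaling (0.06), and those of isoprenoid use (0.02) and the actin list (0.00) on rescaling. The promoter comparison was not run, since too few genes had a window. No paired analysis was possible because each condition has 1 library.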
